A study of Mus musculus with 6 samples.

Results

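The genes described here encode the protein subunits of the mitochondrial respiratory chain and ATP synthase, complexes I to V. They are the 102 protein-coding rows, of 55481 rows in the expression table, whose symbols match the naming patterns of these subunits: 89 are encoded in the nucleus and 13 in the mitochondrial genome. The choice used gene names and not expression. The study sequenced polyA RNA in bulk from cells of mouse skin squamous cell carcinoma (SCC) induced by DMBA, a carcinogen, and TPA, a tumour promoter. Its series text compares cells it calls tumour stem-like with cells it calls differentiated, to ask how the former act on neutrophils. The stem-like cells had high Itga6, the integrin alpha 6 chain that anchors basal keratinocytes, and carried CD80, a co-stimulatory ligand (Itga6hi CD80pos, 2 libraries). The differentiated cells had low Itga6 and lacked CD80 (Itga6low CD80neg, 2 libraries). Another group of 2 libraries, Itga6hi CD80neg, was not analysed here. No genotype, strain, age or pooling of animals is given in the labels, and all groups share the DMBA/TPA tumour model. Nothing in the labels says that the 2 libraries of a group are from different animals, and the p-values therefore reflect only how these libraries spread, which may be technical.

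The respiratory chain passes electrons from NADH (complex I) and succinate (complex II) through ubiquinone to complex III, then through cytochrome c to complex IV, which reduces oxygen. Complexes I, III and IV pump protons across the inner mitochondrial membrane, and ATP synthase (complex V) uses their return to make ATP. Complex II is built from nuclear-encoded subunits alone, whereas the other complexes join nuclear subunits made in the cytosol with a few hydrophobic subunits made inside the mitochondrion, so their supply depends on transcription from both genomes. Several subunits of complex IV have isoforms restricted to muscle, lung or testis.

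Nuclear respiratory genes are known for short, GC-rich promoters with sites for NRF1, ETS-family factors such as GABP, and YY1. Promoters of 250 bases before to 50 bases after the start were taken from RefSeq (GRCm38.p6), which held 74 promoters for 69 of the 88 nuclear symbols. Each motif was searched on both strands. The NRF1 palindrome, whose letters stand in capitals in the first 3 windows, was in 5 of these 74 promoters (6.76%), against 0.971% of all 32851 promoters. The ETS letters CCGGAAG were in 17 (23.0%, against 8.86%), and the YY1 letters AAGATGGC were in 10 (13.5%, against 2.75%). These are matches of letters and not measured binding. The following windows show the NRF1 match in promoters of Atp5g2, whose RNA rose, and of Ndufa11 and Atp5k, whose RNA did not pass the test, then the ETS match in promoters of Uqcr11, Sdhd and Atp5e, which did not pass it either. Each is written 5′ to 3′ along the gene's strand, and capitals mark the motif, which for Sdhd and Atp5e is read on the opposite strand as CTTCCGG. The Atp5g2 and Atp5k windows overlap an annotated exon, and the Atp5g2 window lies inside the gene position given below.
Atp5g2 (chr15:102671070-102671099, minus strand): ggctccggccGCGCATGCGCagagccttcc
Ndufa11 (chr17:56717692-56717721, plus strand): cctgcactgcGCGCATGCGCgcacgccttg
Atp5k (chr5:108434430-108434459, minus strand): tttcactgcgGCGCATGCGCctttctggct
Uqcr11 (chr10:80406871-80406897, minus strand): tctctcctccCCGGAAGtagatgtcaa
Sdhd (chr9:50603879-50603905, minus strand): cgtctcctgcCTTCCGGttcacgcttc
Atp5e (chr2:174464187-174464213, minus strand): acggccacagCTTCCGGtagccgctcg

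The libraries differed in more than their sort markers. Haemoglobin genes made up 70.9% and 50.4% of the deposited TPM in Itga6low CD80neg and 0.0185% and 0.00621% in Itga6hi CD80pos. TPM are transcript levels expressed as shares of a fixed total of 1000000, so haemoglobin was left out and the rest rescaled, and all levels below are TPM without haemoglobin unless said, given for replicate 1 and then replicate 2. Itga6 stood at 178 and 339 TPM in Itga6hi CD80pos and at 5.15 and 3.33 in Itga6low CD80neg, while Cd80, at 6.24 and 1.89 against 2.21 and 1.14, overlapped between the groups. Genes of keratinocytes, the cells SCC arises from, were present in all libraries (summed 46423 and 46982 TPM against 6863 and 11428, 3 of 6 tested genes higher). Fibroblast genes were near 0 in Itga6hi CD80pos (8.87 and 10.2 TPM) and high in Itga6low CD80neg (30893 and 11169, 8 of 8 lower in Itga6hi CD80pos). All 4 tested genes of dividing cells were higher in Itga6hi CD80pos (304 and 252 TPM against 29.3 and 36.7). The part of these other cells in the results below was not tested, and in bulk RNA fewer cells of a type and less RNA per cell cannot be told apart. TPM keep no read counts, and sequencing depth is therefore unknown.

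Nuclear-encoded subunits stood mostly at higher levels in Itga6hi CD80pos, and the mitochondrially encoded subunits as a set did not. Of the 89 nuclear members, 83 had at least 1 TPM in at least 2 libraries and were tested with limma. The RNA of 7 nuclear members rose in Itga6hi CD80pos relative to Itga6low CD80neg and that of 3 fell, at a Benjamini-Hochberg adjusted p under 0.05. Over all 14574 genes tested, 7.48% were higher and 12.1% lower by the same rule, so the share of nuclear members called higher was near the background and the share called lower was below it. By unadjusted p under 0.05, 28 nuclear members were higher and 4 lower, beside 17.4% and 21.0% of all tested genes. By direction alone, 74 of the 83 (89.2%) had a log2 fold change above 0, against 52.8% of all tested genes, and their median was 0.62 against 0.08. The libraries of the groups did not overlap for 64 members higher in Itga6hi CD80pos and for 7 members lower, where 35.4% and 32.4% of all tested genes had no overlap in these directions. None of the 13 mitochondrial members passed limma's test, none had an unadjusted p under 0.05, and their median log2 fold change was -0.13.

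The calls rested on few libraries. With either Itga6hi CD80pos library left out, limma called 0 members in either direction and 0 of all tested genes. At an unadjusted p under 0.05, 3 of the 96 members were then higher and 1 lower without replicate 1, beside 5.35% and 11.2% of all tested genes. Without replicate 2 they were 7 and 3, beside 7.20% and 12.0%, so the members stood near or below the background by this rule. Without Itga6low CD80neg replicate 1, Atp5a1, Atp5g1, Atp5g3, Cyc1 and Cox4i2 were no longer called, and Cyc1 was not called without replicate 2 either. The median log2 fold change of nuclear members was 0.34 without replicate 1, beside 0.21 for all tested genes. Without replicate 2 it was 0.85, beside -0.13. With no filter on low values limma called 0 members. By unadjusted p under 0.05, 24 were then higher and 3 lower, beside 10.3% and 12.1% of the 30654 genes then tested. Without a trend in the variance 3 higher and 2 lower calls were kept, beside 831 higher and 1525 lower of all 14574 tested genes. Counts moved with the scaling too: from the deposited TPM, haemoglobin included, 69 nuclear members were called higher and 3 lower, beside 57.0% and 9.48% of the 13474 genes then tested. With mitochondrial, ribosomal protein and keratin genes also left out of the total, the split was 13 and 3. Of all 15050 genes then tested, 1887 were higher and 1866 lower.

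**Figure D1:**
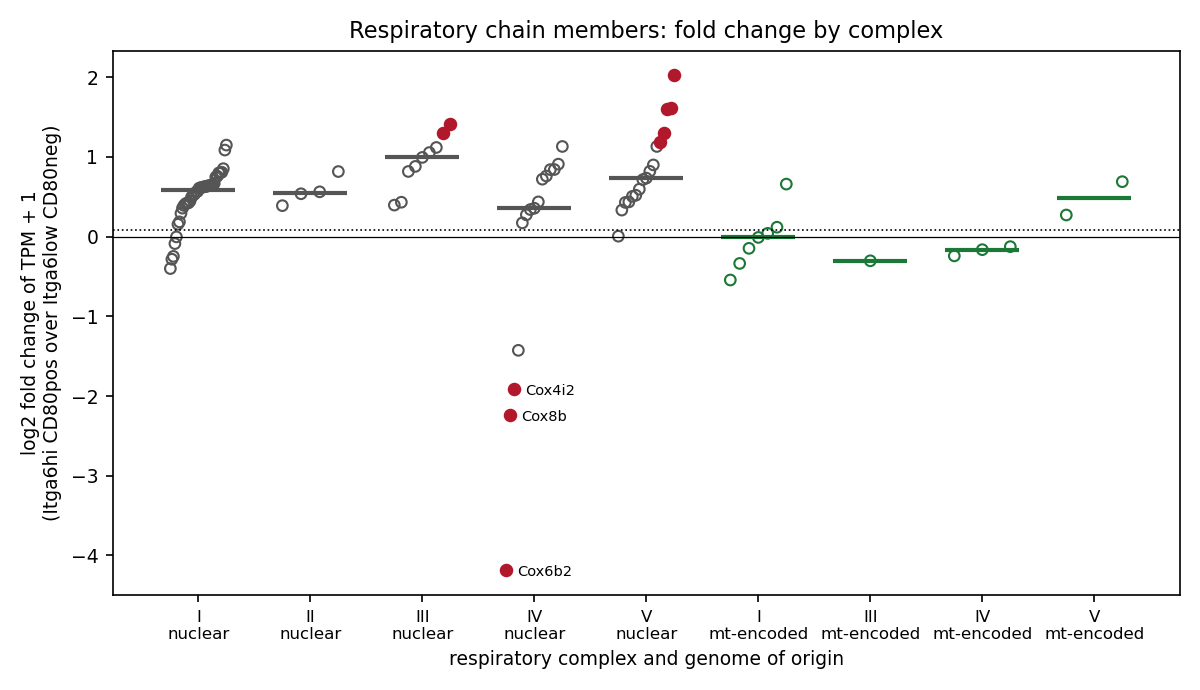
Log2 fold change of TPM + 1 (vertical axis, Itga6hi CD80pos over Itga6low CD80neg) for each of the 96 tested members, by complex and genome of origin. Filled points passed limma's test, bars are medians and the dotted line is the median of all tested genes (0.08). All called members that were higher lie in complexes III and V, and the 3 that were lower are isoforms of complex IV.

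Summed over members, nuclear subunits reached 27292 and 24191 TPM in Itga6hi CD80pos and 13631 and 19336 in Itga6low CD80neg, a ratio of means of 1.56. The 13 mitochondrial subunits summed to 26806 and 28040 TPM against 24519 and 30520, a ratio of 0.996. The nuclear sums did not overlap between the groups, while both Itga6hi CD80pos sums of mitochondrial genes lay between those of the Itga6low CD80neg libraries. An exact permutation test of 2 libraries against 2, two-sided, cannot give a p under 0.333, which is the value for the nuclear sums, and for the mitochondrial sums it gave 1.0. By complex, the ratio of the summed nuclear levels was 1.36 for complex I, 1.52 for II, 1.82 for III, 1.42 for IV and 1.78 for V.

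The Itga6low CD80neg libraries also differed from each other. Replicate 2 had the higher level in 76 of the 83 tested nuclear members and in 12 of the 13 mitochondrial ones, where 33.8% of all tested genes had the higher level in replicate 2. Replicate 1, the library with more haemoglobin and more fibroblast RNA, was the lowest of the 4 libraries in summed TPM of nuclear complexes I to V and of mitochondrial complex V. The part of these other cells in that difference was not tested.

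**Figure D2:**
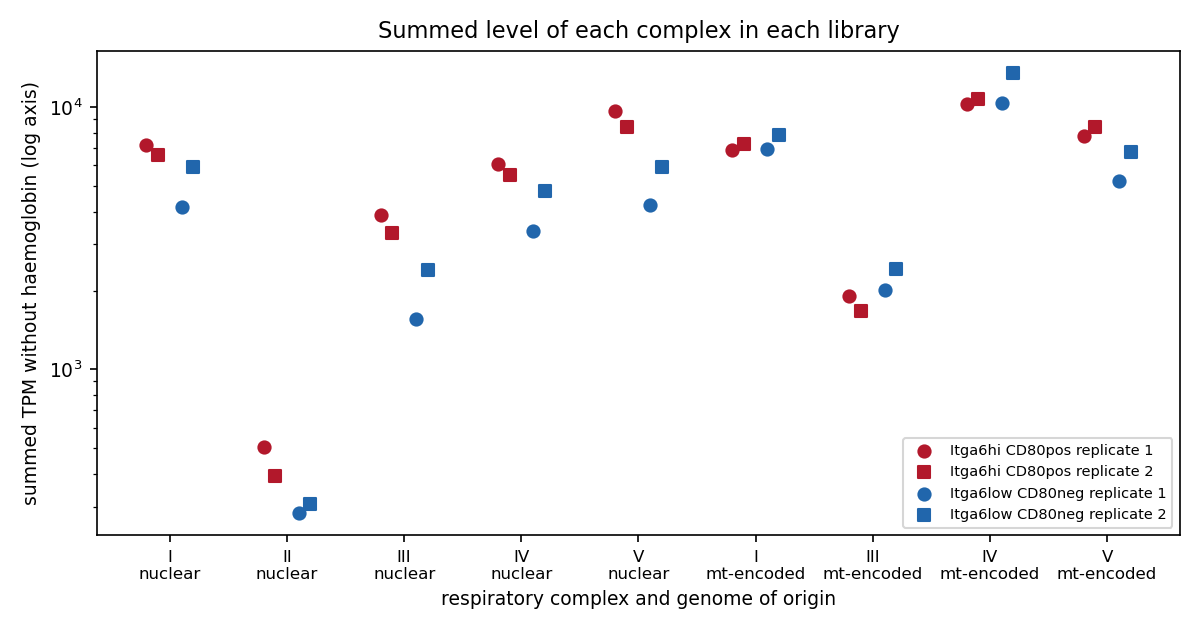
Summed TPM without haemoglobin (log axis) of the members of each complex, nuclear and mitochondrially encoded apart, in each of the 4 libraries. For the nuclear sums both Itga6hi CD80pos libraries lie above both Itga6low CD80neg libraries, and for mitochondrially encoded complexes I and IV the groups overlap.

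Complex V, the ATP synthase, held 5 of the 7 members that rose. These were 5 of its 17 tested nuclear subunits, beside 7.48% of all tested genes that rose. All 17 tested nuclear subunits had a log2 fold change above 0, with a median of 0.74 and a range from 0.01 to 2.02. The called members were 2 of the 5 subunits of the F1 head and central stalk (median 1.13), both of them subunits of the head, and 3 of the 3 genes for subunit c, which forms the membrane rotor ring (median 1.62). None of the 4 tested peripheral stalk subunits (median 0.58) and none of the 5 small membrane subunits (median 0.52) passed.

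Atp5b (chr10:128083273-128090391 on GRCm38, GENCODE M21, as for all gene positions given), which encodes the catalytic beta subunit, was the most abundant nuclear member in Itga6hi CD80pos. It stood at 1829 and 1605 TPM in Itga6hi CD80pos and 500.0 and 639.5 in Itga6low CD80neg. In both Itga6low CD80neg libraries Cox4i1, a complex IV subunit described below, was above it. Both Itga6hi CD80pos libraries lay far above the others for Atp5b, and the log2 fold change was 1.60 ± 0.28 (SE, adjusted p = 0.0287, limma). Within a library Atp5b was 7.73 and 7.37 times the median nuclear member in Itga6hi CD80pos and 4.0 and 3.66 times it in Itga6low CD80neg, a ratio that does not depend on how libraries are scaled. Atp5a1 (chr18:77773729-77782869), the alpha subunit that alternates with beta in the F1 head, stood at 690.3 and 571 TPM against 269.6 and 282. Its groups did not overlap, and it rose by 1.18 ± 0.23 (adjusted p = 0.0339). The delta subunit of the central stalk, Atp5d, was at 503 and 388 TPM against 169 and 239. Its log2 fold change of 1.13 ± 0.28 just missed the threshold (adjusted p = 0.0551), and that of the gamma subunit Atp5c1, the rotating shaft, was 0.73 ± 0.26 (adjusted p = 0.112). The smallest F1 subunit, Atp5e, had 710.4 and 614 TPM against 458 and 599, and its difference of 0.33 did not pass (adjusted p = 0.412).

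Subunit c is made from 3 genes whose proteins differ in the import sequence that is removed. Atp5g1 (chr11:96068852-96075670) was at 554 and 414 TPM in Itga6hi CD80pos and 138 and 175 in Itga6low CD80neg. The groups were far apart, with a log2 fold change of 1.62 ± 0.27 (adjusted p = 0.0257). Atp5g3 (chr2:73908447-73911326), the most abundant of the 3 as listed, was at 822 and 719 TPM against 257 and 379. It rose by 1.30 ± 0.29 (adjusted p = 0.0431), a call lost with a pseudocount of 5 and with median-of-ratios scaling. Atp5g2 (chr15:102662864-102672352) was listed at only 25.4 and 24.6 TPM against 3.76 and 7.59, with the highest fold change of any member, 2.02 ± 0.41 (adjusted p = 0.0371). That value is uncertain, because Gm10175, a processed pseudogene with 100% identity over 645 bases, was given 585 and 525 deposited TPM against 80.9 and 154. On the same deposited scale Atp5g2 was at 25.4 and 24.6 TPM against 1.09 and 3.77. With the TPM of the copies added to their member, an alternative chosen after the data were seen, the log2 fold change of Atp5g2 was 0.95 (adjusted p = 0.0480). The Atp5g2 share of the 3 genes was then 30.7% and 32.6% in Itga6hi CD80pos and 41.7% and 36.5% in Itga6low CD80neg. In Itga6low CD80neg replicate 1 Gm10175 alone was above Atp5g3, which had 74.6 deposited TPM. Genes of the F1 head, the central stalk and subunit c together made up 55.5% and 54.4% of nuclear complex V TPM in Itga6hi CD80pos. Their share was 45.03% and 42.0% in Itga6low CD80neg.

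None of the tested subunits of the peripheral stalk and none of the small membrane subunits passed. Atp5h, subunit d of the peripheral stalk, was at 458 and 432 TPM against 401 and 489, so that the groups overlapped around the same mean, and its log2 fold change was 0.01 ± 0.23 (adjusted p = 0.987). Atp5o, the OSCP subunit that ties the stalk to the F1 head, was at 485 and 403 TPM against 191 and 293, a difference of 0.90 ± 0.30 that did not pass (adjusted p = 0.0980). A second row named Atp5o was listed at 0 in all 4 libraries. Atp5pb, subunit b, had 274 and 258 TPM against 128 and 203, with no overlap and an adjusted p of 0.148. Atp5k, the small subunit e whose promoter window is printed above, was at 548 and 428 TPM against 255 and 401 (log2 fold change 0.60, adjusted p = 0.242). Whether the peripheral stalk differed from the F1 head in its response was not tested.

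**Figure D3:**
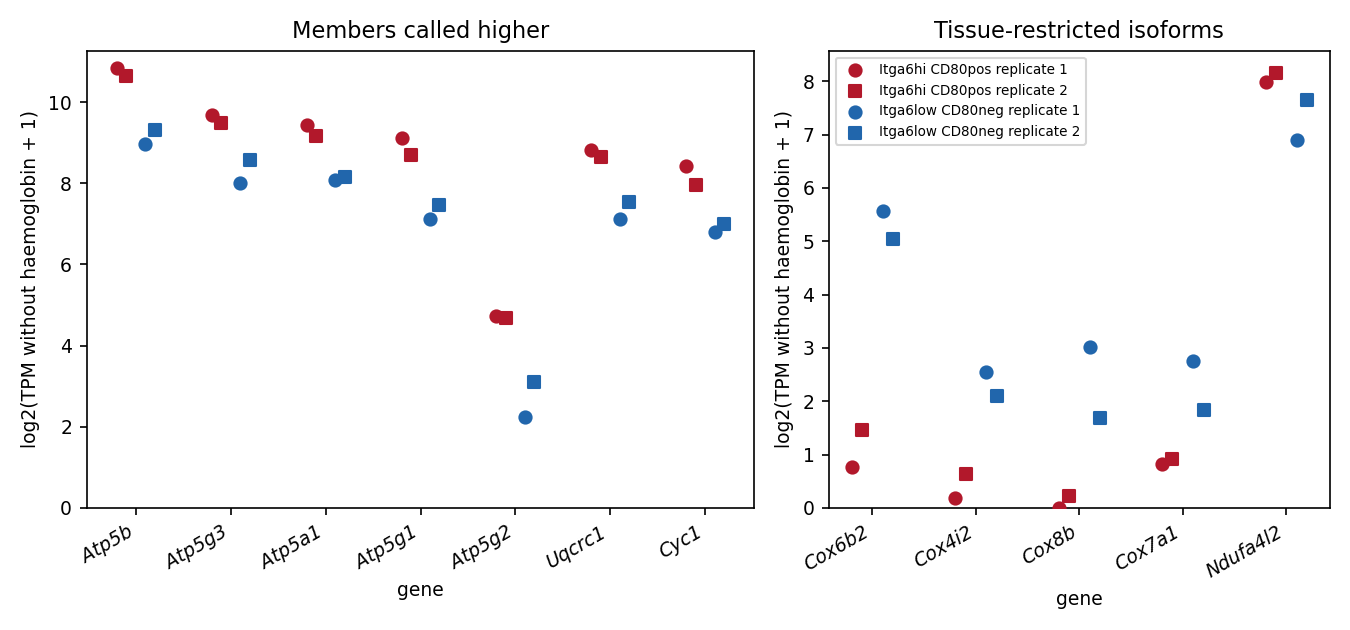
Log2(TPM without haemoglobin + 1) in each library for the 7 members called higher (left) and for the tissue-restricted isoforms of complex IV with Ndufa4l2 (right). On the left both Itga6hi CD80pos libraries lie above both Itga6low CD80neg libraries for each gene, and on the right the order is the opposite for the 4 Cox isoforms.

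Complex III, ubiquinol-cytochrome c reductase, had the highest median of the nuclear groups, 0.99. All 9 of its members lay above 0 and 2 rose, beside 7.48% of all tested genes that rose. Its 4 core and redox subunits had a median of 1.21 and its 5 accessory subunits one of 0.88. Uqcrc1 (chr9:108936633-108949623), a core protein of the matrix arm, was at 451 and 403 TPM in Itga6hi CD80pos and 138 and 186 in Itga6low CD80neg. The libraries separated clearly, with a log2 fold change of 1.41 ± 0.25 (adjusted p = 0.0288). Cyc1 (chr15:76343523-76346260), cytochrome c1, which hands electrons to cytochrome c, was at 345 and 246 TPM against 110.4 and 126. It rose by 1.30 ± 0.26 (adjusted p = 0.0353), but was no longer called without either Itga6low CD80neg library. The Rieske iron-sulphur protein, Uqcrfs1, stood at 174 and 152 TPM against 61.1 and 90.0. Its groups did not overlap either, and the log2 fold change of 1.12 ± 0.27 was just outside the threshold (adjusted p = 0.0512). The other core protein, Uqcrc2, differed by 0.82 ± 0.30 (adjusted p = 0.117). Among the small accessory subunits, Uqcr11 was the most abundant in Itga6hi CD80pos, where Uqcrh was in Itga6low CD80neg, and stood at 738 and 641 TPM against 251 and 434 (log2 fold change 1.06, adjusted p = 0.0921). Uqcrb, which helps to form the ubiquinone pocket, had the smallest difference, with 307 and 266 TPM against 173 and 272 and overlapping groups (log2 fold change 0.40, adjusted p = 0.387).

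Complex I, NADH dehydrogenase, is the largest complex, and none of its 38 tested nuclear members passed the test in either direction. Ndufab1, a complex I subunit outside the naming patterns used here, did pass (log2 fold change 2.08, adjusted p = 0.0248, limma) and is given below. By unadjusted p, 8 of the 38 were higher at 0.05 and 0 were lower, where 17.4% and 21.0% of all tested genes were. The median log2 fold change was 0.59, and 33 of the 38 lay above 0. The 7 core subunits, which include those that carry the flavin and the iron-sulphur clusters, had a median of 0.67, and all 7 had libraries that did not overlap. The 31 tested accessory subunits, which surround the core, had a median of 0.56. Of them 22 did not overlap in the higher direction, 3 did not in the lower and 6 overlapped. The shares of all tested genes without overlap were 35.4% in the higher direction and 32.4% in the lower. Ndufv2, an iron-sulphur subunit of the NADH-oxidising module, had the lowest adjusted p of the 38 members, 0.0612. It stood at 161 and 157 TPM against 89.5 and 98.9, with a log2 fold change of 0.75 ± 0.20. Ndufa12, an accessory subunit, had the highest fold change of the 38 members, 1.15 ± 0.31 (adjusted p = 0.0650). It was at 288 and 258 TPM against 94.4 and 159. Both sets of libraries were apart, and the 2 Itga6low CD80neg libraries also differed between themselves. Ndufa11, the accessory subunit whose promoter window is printed above with an NRF1 match, was at 203 and 199 TPM against 148 and 158, without overlap (log2 fold change 0.39, adjusted p = 0.217).

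Some accessory subunits of complex I stood higher in Itga6low CD80neg. Ndufa3 had the lowest fold change, -0.40 ± 0.24 (adjusted p = 0.284), at 248 and 205 TPM against 269 and 329.9. Ndufa1, needed for assembly of the membrane arm, was at 228 and 245 TPM against 248 and 319, and Ndufa13, also known as GRIM-19, was at 87.5 and 72.8 against 93.4 and 102. For these 3 genes the libraries did not overlap but none passed (adjusted p = 0.488 for Ndufa1 and 0.394 for Ndufa13). Ndufa4, the most abundant member of the group, is named as a complex I subunit but is known to belong to complex IV. It was at 521 and 614 TPM against 278 and 548, so that the groups overlapped (log2 fold change 0.54, adjusted p = 0.375). Its paralogue Ndufa4l2, known as a hypoxia-induced gene, was at 253 and 286 TPM against 119 and 199.7, without overlap but short of the threshold (log2 fold change 0.80, adjusted p = 0.140). Ndufa4l2 made up 32.6% and 31.7% of the sum of both genes in Itga6hi CD80pos and 29.9% and 26.7% in Itga6low CD80neg. Ndufb11b was at or near 0 in every library and was not tested.

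Complex II, succinate dehydrogenase, which also works in the citric acid cycle, had 4 members above 0, none that passed limma's test and 1 that was higher at an unadjusted p under 0.05 (17.4% of all tested genes). Sdha, the flavoprotein that oxidises succinate, was at 84.3 and 67.3 TPM against 70.3 and 46.7, so that the groups overlapped (log2 fold change 0.39 ± 0.29, adjusted p = 0.390). Sdhb, the iron-sulphur subunit, was at 123 and 94.6 TPM against 68.3 and 80.3 (log2 fold change 0.54, adjusted p = 0.180). The membrane anchors Sdhc and Sdhd had no overlap between groups. Sdhc was at 145 and 122 TPM against 77.5 and 103 (0.56 ± 0.25 on the log2 scale, adjusted p = 0.172). Sdhd was at 152 and 109 TPM against 67.7 and 77.7 (0.82 ± 0.26, adjusted p = 0.0869).

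Complex IV, cytochrome c oxidase, held all 3 members that fell, and each of them is a tissue-restricted isoform. They were 3 of its 15 tested nuclear subunits, beside 12.1% of all tested genes that fell. Without these and Cox7a1, another restricted isoform, 11 tested nuclear subunits remained, of which 0 passed limma's test, all 11 lay above 0 and the median was 0.72. By unadjusted p, 4 of the 11 were higher at 0.05, beside 17.4% of all tested genes. Cox4i1, the ubiquitous form of the largest nuclear subunit, was the most abundant, at 965 and 863 TPM in Itga6hi CD80pos and 569 and 798 in Itga6low CD80neg. The lower Itga6hi CD80pos value was only slightly above the higher Itga6low CD80neg value (log2 fold change 0.44 ± 0.29, adjusted p = 0.333). Cox5a, a matrix-side subunit that sits against Cox4, had the highest fold change of the complex, with 349 and 294 TPM against 118 and 179. Its libraries were apart, and the log2 fold change of 1.13 ± 0.29 missed the threshold (adjusted p = 0.0559).

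Cox6b2 (chr7:4751792-4753094), known as the testis isoform of the subunit that faces cytochrome c, was at 0.709 and 1.74 TPM in Itga6hi CD80pos and 46.2 and 31.8 in Itga6low CD80neg. Both Itga6low CD80neg libraries were high, and the gene fell by 4.18 ± 0.44 on the log2(TPM + 1) scale (adjusted p = 0.0130). It made up 0.0959% and 0.275% of the sum of Cox6b1 and Cox6b2 in Itga6hi CD80pos and 13.2% and 6.25% in Itga6low CD80neg. Cox6b1, the ubiquitous form, was at 739 and 631 TPM against 303 and 477 (log2 fold change 0.84, adjusted p = 0.123). Germ cell markers were near 0 throughout: Dazl and Tnp1 were listed at 0 in all libraries, and the 4 markers summed to 0.0147 and 0.218 TPM in Itga6hi CD80pos and to 0 in both Itga6low CD80neg libraries.

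The other isoforms were at low levels, where adding 1 TPM understates a fold change. Cox4i2 (chr2:152754173-152765037), known from lung and as an oxygen-responsive form, was at 0.142 and 0.557 TPM against 4.82 and 3.31. It fell by 1.91 ± 0.37 (adjusted p = 0.0334), a call that was lost without Itga6low CD80neg replicate 1. Genes of pericytes and smooth muscle moved in the same direction, with 6 of 8 tested genes lower in Itga6hi CD80pos, beside 12.1% of all tested genes. They summed to 62.8 and 51.7 TPM against 1112 and 984. Tested fibroblast genes (8 of 8) and red cell genes (4 of 4) were lower too. The part of any of these cells in the level of Cox4i2 was not tested. Cox8b (chr7:140898945-140900446), the heart and skeletal muscle form, was at 0 and 0.175 TPM against 7.11 and 2.24. It fell by 2.24 ± 0.53 (adjusted p = 0.0482), a call lost with a pseudocount of 5. Neither Cox4i2 nor Cox8b reached a mean of 5 TPM. Cox7a1, of heart, skeletal muscle and brown fat, was at 0.761 and 0.892 TPM against 5.75 and 2.56, without overlap but short of the threshold (-1.43 ± 0.44, adjusted p = 0.0852). Cox6a2, the remaining muscle form, was listed at 1.91 TPM in Itga6low CD80neg replicate 1 and at 0 in the other libraries.

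For Cox8b, Cox7a1 and Cox6a2 the highest value was in Itga6low CD80neg replicate 1, which was also the library with the most skeletal muscle RNA. Skeletal muscle markers summed to 7.36 and 12.0 TPM in Itga6hi CD80pos and to 383 and 102 in Itga6low CD80neg, with 3 of 6 tested genes lower in Itga6hi CD80pos. Among them Acta1, skeletal muscle actin, was at 138 and 27.7 TPM in Itga6low CD80neg. Their part in the isoform values was not tested. The 4 brown fat markers summed to 10.4 and 9.42 TPM in Itga6hi CD80pos and to 5.19 and 3.76 in Itga6low CD80neg. Ucp1 among them was listed at 0 in all libraries. Both of the 2 tested brown fat markers had a log2 fold change above 0, and 0 were called. The ubiquitous partners Cox8a, Cox7a2 and Cox6a1 stood at 759.7 and 637, 331 and 281 and 668 and 595 TPM in Itga6hi CD80pos, so that the muscle forms were at most 4.40% of any such pair in any library. The testis forms Cox8c and Cox7b2 were listed at 0 in every library, and Cox5b-ps, a pseudogene-like row, was above 0 in 1 library.

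The 13 mitochondrial genes are cut from long transcripts of the whole mitochondrial genome, and in these polyA libraries they were among the most abundant members. Levels within the set ranged widely, and the order was similar in both groups, with mt-Atp6, mt-Co2, mt-Atp8, mt-Co1 and mt-Co3 in the first 5 places of all members in each group. The 3 genes of complex IV, which form its catalytic core, overlapped or were slightly higher in Itga6low CD80neg. mt-Co1, which holds the oxygen-reducing centre, was at 3181 and 3411 TPM against 3454 and 4387 (log2 fold change -0.24 ± 0.38, adjusted p = 0.686). mt-Co2, which receives electrons from cytochrome c, was at 4323 and 4124 TPM against 4009.6 and 5288 (-0.13, adjusted p = 0.852). mt-Co3 was at 2812 and 3164 TPM against 2894 and 3854 (-0.16, adjusted p = 0.787). For mt-Co1 both Itga6low CD80neg libraries were above the others, while mt-Co2 and mt-Co3 overlapped between the groups.

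The single mitochondrial gene of complex III, mt-Cytb, which encodes cytochrome b, was at 1899 and 1676 TPM against 2002 and 2419, without overlap and lower in Itga6hi CD80pos, at a log2 fold change of -0.30 ± 0.32 (adjusted p = 0.536). Both genes of complex V stood the other way. mt-Atp6, the proton channel subunit a, was at 4281 and 4688 TPM against 3235 and 4253 (0.27 ± 0.41, adjusted p = 0.664). mt-Atp8 was at 3462 and 3717 TPM against 1980.4 and 2495 (0.69 ± 0.36, adjusted p = 0.228), the largest mitochondrial difference in this direction. Neither passed, although the libraries did not overlap for either gene as listed. With the TPM of its near-identical copy Gm10925 added, the log2 fold change of mt-Atp6 was 0.098 (adjusted p = 0.887, limma).

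The 7 mitochondrial genes of complex I form its proton-pumping membrane arm, and their fold changes lay on both sides of 0. mt-Nd2 had the lowest adjusted p of the mitochondrial set, 0.190, with 783 and 696 TPM against 1042 and 1111 and a log2 fold change of -0.54 ± 0.25. mt-Nd4 was at 929 and 989.8 TPM against 1109 and 1322 (-0.34), and mt-Nd4l, whose reading frame overlaps that of mt-Nd4, at 1377 and 1444 against 1458 and 1669.9 (-0.15). For these 3 genes both Itga6low CD80neg libraries were above both others, and none passed. In mt-Nd1 (1699.8 and 1804 TPM against 1456 and 1987) and mt-Nd5 (565 and 522 against 439.9 and 568) the groups overlapped. So did mt-Nd6, the gene on the opposite strand, with 643 and 629 TPM against 587 and 698. mt-Nd3 was at 851 and 1176 TPM against 852 and 469.8, the only mitochondrial gene that was lower in Itga6low CD80neg replicate 2 than in replicate 1. In that library Gm28438, a nuclear copy with 99.7% identity to mt-Nd3 over 345 bases, was listed at 293 deposited TPM. The copy was at 3.69 in replicate 1 and at 90.8 and 6.60 in Itga6hi CD80pos. On the same deposited scale mt-Nd3 itself was at 233 TPM in replicate 2, below the copy. It was at 248 in replicate 1 and at 851 and 1176 in Itga6hi CD80pos. With copies added, the log2 fold change of mt-Nd3 moved from 0.66 to 0.14.

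Reads shared with near-identical copies limit what single genes can show. Of the 102 members, 32 had at least 1 other gene whose transcript matched at 95% identity or more over at least 80% of the shorter one, 55 such genes in all. Ndufb4, a complex I subunit, was listed at 32.2 and 25.5 deposited TPM in Itga6hi CD80pos and 6.08 and 8.65 in Itga6low CD80neg. Its pseudogene Ndufb4c, identical over 390 bases, had 213 and 180 deposited TPM against 40.0 and 89.9. Without haemoglobin Ndufb4 was at 32.2 and 25.5 TPM against 20.9 and 17.4 (log2 fold change 0.56, adjusted p = 0.215, limma). With the copy added its log2 fold change was 0.34. For mt-Atp6 the copy Gm10925 had 642 and 639 deposited TPM against 255 and 650.4. On that scale mt-Atp6 itself had 4281 and 4687 against 941 and 2110. With the copies added to their members, the same 7 members were called higher and the same 3 lower.

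The balance between the genomes was compared within each library, where no scaling between libraries enters. Mitochondrial genes made up 49.6% and 53.7% of the summed respiratory chain TPM in Itga6hi CD80pos and 64.3% and 61.2% in Itga6low CD80neg, or 51.6% ± 2.92 against 62.7% ± 2.16 (SD, n = 2 each). The groups did not overlap, and the exact permutation test gave its smallest possible p, 0.333. The median mitochondrial member was 7.18 and 7.69 times the median nuclear member in Itga6hi CD80pos and 11.7 and 11.4 times it in Itga6low CD80neg. The mitochondrial share was higher in Itga6low CD80neg in every complex with members of both kinds. It was 32.8% and 33.5% against 56.2% and 50.2% in complex III, and 48.8% and 52.5% against 62.5% and 57.0% in complex I. In complex IV it was 63.0% and 66.0% against 75.5% and 73.9%, and in complex V, where the libraries were closest, 44.5% and 50.01% against 55.1% and 53.2%.

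**Figure D4:**
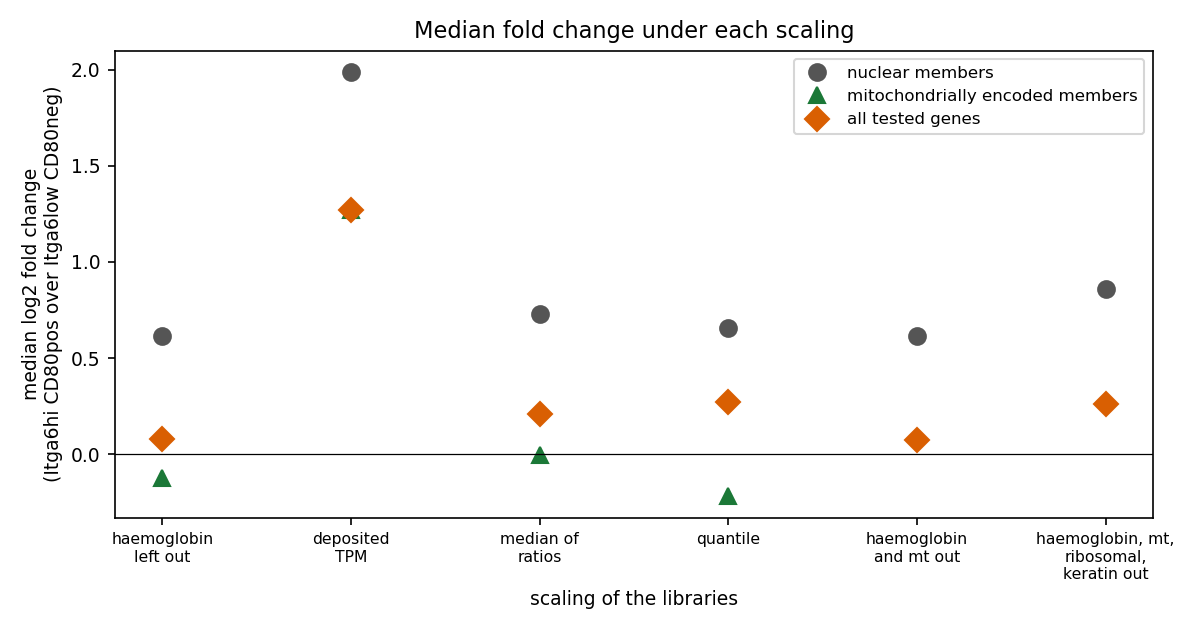
Median log2 fold change (Itga6hi CD80pos over Itga6low CD80neg) of nuclear members, mitochondrially encoded members and all tested genes under 6 ways of scaling the libraries, of which the 2 on the right leave mitochondrial genes out and so give no mitochondrial median. The nuclear median lies above that of all genes each time (0.62 against 0.08 without haemoglobin, 1.99 against 1.27 as deposited), and in the other 4 scalings the mitochondrial median is level with that of all genes (deposited TPM) or below it.

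The sign of the mitochondrial genes depended on the scaling. The median of all tested genes shifted from 0.08 without haemoglobin to 1.27 with the deposited TPM, 0.21 with median-of-ratios scaling and 0.27 with quantile normalisation. The nuclear median was 0.62, 1.99, 0.73 and 0.66 under these settings, above that of all genes each time. The mitochondrial median was -0.13, 1.27, -0.0036 and -0.22, so that it was level with all genes in the deposited TPM and below them in the others.

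Genes that serve the respiratory chain were read from lists written from textbook knowledge, beside the same background of 7.48% higher and 12.1% lower. Of 30 tested genes for mitochondrial import and carriers, 8 rose and 0 fell, with a median of 0.92. Slc25a10, the dicarboxylate carrier, had the highest fold change, at 57.6 and 44.3 TPM against 12.1 and 10.1 (2.09 ± 0.28, adjusted p = 0.0192). Slc25a3, which brings in the phosphate that ATP synthase uses, had the lowest of the 8, at 559.9 and 507 TPM against 254 and 261 (1.05 ± 0.21, adjusted p = 0.0365). Neither gene overlapped between groups. Of 25 tested genes of the citric acid cycle and pyruvate oxidation, 5 rose and 0 fell (median 0.67). Among them Pdk1, which inhibits pyruvate dehydrogenase, rose by 1.67 ± 0.31 (adjusted p = 0.0312), and Cs, Idh3a and Mdh2, enzymes of the cycle, rose by 1.23, 1.53 and 1.35.

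Of 39 tested genes for expression of the mitochondrial genome, 4 rose and 0 fell (median 0.56). Tbrg4, a mitochondrial RNA-binding protein, was at 78.2 and 67.0 TPM against 27.1 and 14.5 (1.82 ± 0.36, adjusted p = 0.0354). Tufm, the elongation factor of mitochondrial translation, was at 138 and 106 TPM against 44.9 and 49.6 (1.34 ± 0.24, adjusted p = 0.0283). Both genes were clearly apart between groups, and Lrpprc and Gfm1 rose with them. Of 54 assembly factors and related genes, 2 rose and 0 fell, and the median of 0.33 was the lowest of the 6 lists. These were Ndufab1, the acyl carrier protein that is also a complex I subunit but lies outside the naming patterns used here (2.08 ± 0.33, adjusted p = 0.0248), and Sco2, a copper chaperone of complex IV (1.49 ± 0.32, adjusted p = 0.0395).

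Among 14 regulators of respiratory genes, 10 were tested and 2 rose: Ppard, a nuclear receptor of fatty acid use (90.9 and 117 TPM against 37.2 and 18.3, 1.94 ± 0.40, adjusted p = 0.0376), and Esrra, an orphan receptor that drives respiratory genes (67.2 and 58.8 against 20.4 and 27.6, 1.37 ± 0.26, adjusted p = 0.0335). The factors whose motifs were searched above did not pass: Nrf1 was at 24.4 and 22.2 TPM against 12.7 and 9.14 (adjusted p = 0.0792), Yy1 at 30.2 and 28.6 against 16.3 and 11.5 (adjusted p = 0.0718) and the GABP subunit Gabpa at 17.4 and 14.8 against 16.5 and 11.4 (adjusted p = 0.680). The coactivator Ppargc1a was under 1 TPM in all libraries and was not tested. Of 18 tested electron carriers and shuttles, 0 passed limma's test, with 4 higher and 0 lower at an unadjusted p under 0.05, by which rule 17.4% and 21.0% of all tested genes were higher and lower. Etfb, which feeds electrons from fatty acid oxidation, was the most abundant of them at 227 and 170.0 TPM against 129 and 162 (adjusted p = 0.280).

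The counts of these lists rested on few libraries too. Without either Itga6hi CD80pos library limma called 0 genes in any of the 6 lists, as it did over all genes. Without either Itga6low CD80neg library the counts moved as well, and without replicate 2 some genes were called lower. Such fits leave 1 library in a group, so their counts are not given. With 1 library left out, the log2 fold change ranged from 1.91 to 2.28 for Slc25a10 and from 0.98 to 1.12 for Slc25a3. The range was 1.39 to 2.25 for Tbrg4, 1.16 to 1.53 for Tufm and 1.67 to 2.48 for Ndufab1. It was 1.44 to 2.43 for Ppard, 1.16 to 1.58 for Esrra and 0.23 to 0.65 for Etfb.

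**Figure D5:**
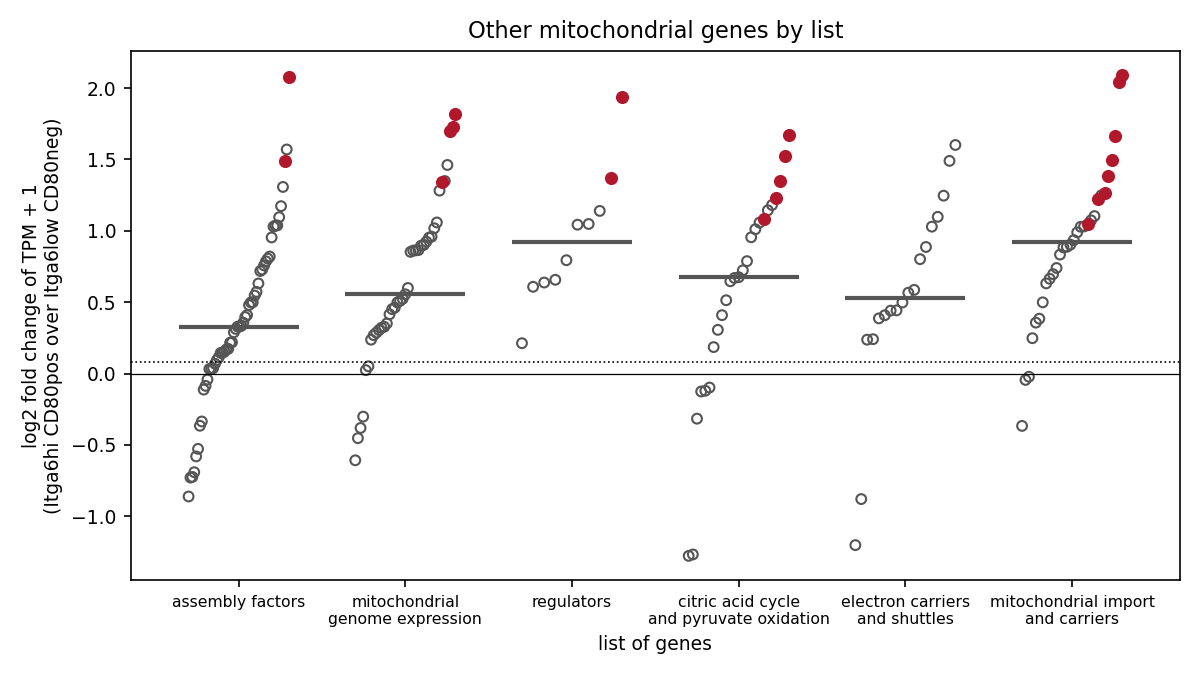
Log2 fold change of TPM + 1 (vertical axis, Itga6hi CD80pos over Itga6low CD80neg) of the tested genes of 6 lists. Filled points passed limma's test, bars are medians and the dotted line is the median of all tested genes. All called genes are higher in Itga6hi CD80pos, from 2 of 54 assembly factors to 8 of 30 import and carrier genes, and the electron carriers have none.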

How the data were processed

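The table used held 4 libraries, and the values deposited by the authors are TPM per gene. Per the submitters' processing notes, kallisto 0.44.0 and the build mm10 were used. The annotation and the summing of transcripts to genes are not given in the sources used here. Each column summed to 1000000, and TPM keep no depth, so no interval or floor from counts is given.

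The 12 haemoglobin rows were left out and each library rescaled to 1000000. The 14574 genes that reached 1 TPM in 2 or more libraries were tested on log2(TPM + 1) with limma 3.58.1 in R 4.3.3 (lmFit, eBayes with a trend, two-sided), adjusted by Benjamini-Hochberg over all of them and called at an adjusted p under 0.05. The fit had 2 residual and 2.72 prior degrees of freedom. Fold changes are on the log2(TPM + 1) scale, which understates those of low genes. On simulated data with 14574 genes it recovered 98% of changes of 2 and 100% of changes of 4 on the log2 scale. Every simulated gene had the same spread between libraries, whereas real genes differ in spread. The simulation therefore does not show what share of real changes was found.

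Groups came from the sample titles. Samples with the same replicate number share only that number. The members, lists, tests and scaling were chosen with earlier results of these data known. Named genes were all mitochondrial and Sdh members, all isoform pairs, and per complex the nuclear member with the highest fold change, the lowest fold change and the highest level. For each pathway list they were the called members with the highest and lowest fold change, or, with none called, the most abundant, and for each list of other cells the most abundant marker. Every other gene named was chosen after its values were seen. A gene given by the rule is not reported here. Of marker genes not given in the report, Cidea had a log2 fold change of 0.75, Pecam1 0.63, S100a8 -1.65, Trac -2.20, Krt14 2.25, Col3a1 -10.93, Tagln -7.87 and Cdk1 2.82. Ahsp was not used here. White adipocyte markers summed to under 1 TPM in every library, with Adipoq listed at 0. Endothelial markers summed to 1.89 to 9.17 TPM with 0 of 1 tested called, T cell markers to 0.230 to 6.47 with 1 of 1 lower, and macrophage and neutrophil markers to 334 to 2014 with 3 of 5 lower. Gene positions and near-identical copies (at least 150 aligned bases) came from GENCODE M21 on GRCm38, and promoters from RefSeq. Alternatives were other scalings, pseudocounts of 0.1 and 5, other filters, no variance trend, a replicate block, each library left out, and copies added to their member, the last chosen after seeing the data.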

Additional observations from a re-analysis of the deposited data

How the results depend on the processing

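With 2 libraries a group and no read counts, only large differences could pass, and calls moved with the settings. All 7 higher and 3 lower member calls held with mitochondrial genes also left out of the total, a pseudocount of 0.1, copies added and the replicate block. Samples share only a replicate number (correlation of the deviations 0.11 over genes), and the block gave 8 members higher and 3 lower, and 1246 and 2228 of all genes. Median-of-ratios scaling lost Atp5g3, and quantile normalisation lost Atp5g2. Where a count moved, the cause was not tested.

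Against 7 nuclear members (also 7 of all members) called higher, the deposited TPM gave 69 (70 of all members, 1 of them mitochondrial), leaving out haemoglobin, mitochondrial, ribosomal protein and keratin genes 13 (13), no filter 0 (0), no trend 3 (3), and leaving out 1 library 0 to 35 (0 to 36). Against 3 called lower, no filter gave 0, a mean of at least 5 TPM 1, and leaving out 1 library 0 to 4. Mitochondrial members called higher ranged from 0 to 1 when 1 library was left out. Of all genes, 1090 were higher and 1767 lower. The deposited TPM gave 7686 higher, the leanest total 1887 higher and no filter 10 higher and 114 lower. A pseudocount of 5 gave 1098 lower and a mean of at least 5 TPM 1035 lower. Leaving out 1 library gave 0 to 1732 higher and 0 to 2950 lower.

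With 1 library left out, the log2 ratio of summed levels ranged from 0.41 to 0.92 for nuclear members, 0.22 to 0.72 for complex I, 0.41 to 0.77 for II, 0.59 to 1.21 for III, 0.27 to 0.78 for IV and 0.61 to 1.09 for V, and for mitochondrial members from -0.15 to 0.16 (complex I -0.15 to 0.023). Single genes whose sign reversed when 1 library was left out ranged from -0.18 to 0.27 for mt-Nd1, -0.065 to 0.30 for mt-Nd5, -0.13 to 0.12 for mt-Nd6, -0.32 to 0.075 for mt-Co2, -0.37 to 0.043 for mt-Co3, -0.14 to 0.15 for Atp5h and -0.089 to 1.35 for Pecam1, an endothelial marker.

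The sign reversed with the deposited TPM for Ndufa3 (0.99), mt-Nd2 (0.85), mt-Nd4 (1.06), mt-Nd4l (1.25), mt-Nd6 (1.38), mt-Cytb (1.09), mt-Co1 (1.15), mt-Co2 (1.27) and mt-Co3 (1.23). It reversed for mt-Nd6 with median-of-ratios scaling (0.11) and quantile normalisation (0.12), and for mt-Nd1 with the latter (-0.22). The difference in the Atp5g2 share of subunit c TPM went to -7.38 percentage points with copies added.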

Other observations

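The mitochondrial ribosomal RNAs, which are made from the same genome as the 13 protein genes but are not members, differed in the direction of the mitochondrial share. mt-Rnr1 and mt-Rnr2 together stood at 631 and 523 TPM in Itga6hi CD80pos and at 1288 and 1479 TPM in Itga6low CD80neg, with no overlap between the groups. The libraries were made from polyA RNA, so these levels depend on how much of this RNA the selection kept, which was not tested.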
